A study of Arabidopsis thaliana with 6 samples.

Results

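The genes described here are 48 nuclear genes of Arabidopsis thaliana that encode the antenna proteins of both photosystems (LHCB and LHCA), the nuclear subunits of photosystem I (PSA) and photosystem II (PSB), the Rieske iron-sulfur protein of the cytochrome b6f complex (PETC), the small subunit of Rubisco (RBCS) and Rubisco activase (RCA). They were chosen as a list of loci by function, and all 48 were present among the 33602 gene rows of the count files. Transcripts were measured by RNA sequencing in whole seedlings (root, hypocotyl and cotyledon) of athb1-1, a mutant of the homeodomain-leucine zipper transcription factor gene ATHB1, and of wild-type, with 3 libraries of each genotype. Both genotypes are labelled as ecotype Columbia and were grown alike. Seeds were kept on agar with Murashige and Skoog medium, stratified in the dark for 3 days and moved to days of 8 h light and 16 h darkness. Light was 120 µmol per square metre and second, at 22 to 24 °C, for all libraries. The age is given as 4 days and also as 72 h after stratification, and seedlings were taken 1 h before the night ended, so all levels below are levels in the dark. The labels call the libraries biological triplicates, name athb1-1 as the 1 mutant allele and do not say how many seedlings each library pooled.

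The light-harvesting complexes are chlorophyll-binding membrane proteins. LHCB1, LHCB2 and LHCB3 form the trimers of the photosystem II antenna, LHCB4, LHCB5 and LHCB6 are the minor antenna proteins, which stay monomeric and link those trimers to the core, and LHCA proteins form the antenna of photosystem I. Rubisco fixes carbon dioxide in the stroma, with a large subunit made in the plastid and a small subunit imported from the cytosol. The nuclear genes for these proteins are known to be switched on by light and to be kept in step with the state of the plastid.

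Gene counts totalled 12841376 to 13153615 in the athb1-1 libraries and 11036314 to 11974342 in the wild-type libraries. ATHB1 had no gene counts in any library, so the genotype was checked on the summed exon bins of its locus, which the files merge with AT3G01472. That locus had 8.57 ± 0.504 CPM (counts scaled to a common library size) in athb1-1 and 405 ± 40.5 CPM in wild-type (SD, n = 3 each), with an edgeR adjusted p of 7.36e-11 over 18764 loci. Wild-type replicate 2 was unlike the rest. The chi-square per degree of freedom between replicates was 4.48 to 4.67 within athb1-1, against 4.52 between wild-type replicates 1 and 3 and 11.2 and 13.4 for the pairs that include wild-type replicate 2. The 9 seed storage and oleosin genes on the seed marker list summed to between 1.01 and 5.73 CPM in athb1-1 and to 7.43, 48.4 and 2.13 CPM in wild-type replicates 1, 2 and 3, and none of the 9 was at 0 in all libraries. Whole seedlings were sampled, so fewer cells of a type and less RNA per cell cannot be told apart in any level given here.

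None of the 48 genes differed between the genotypes at the threshold. In edgeR's quasi-likelihood test over 18626 genes, 0 of the 48 had a Benjamini-Hochberg adjusted p under 0.05, where 10 of all genes did (0.0537%), 4 of them higher (0.0215%) and 6 lower (0.0322%) in athb1-1. At an unadjusted p under 0.05 the count was also 0 of 48, where 5.24% of all genes passed. That second count depended on the libraries. It was 3 (LHCB1.3, PSAG and PSBY) without wild-type replicate 3, 2 (LHCB1.4 and PSBY) without athb1-1 replicate 2 and 1 (RBCS1B) without wild-type replicate 1, where 6.46%, 3.62% and 3.90% of all genes passed. DESeq2 likewise called 0 of the 48, with 0 at an unadjusted p under 0.05, and called 22 genes in all (0.11%). Without wild-type replicate 2, edgeR called 165 genes (0.873%) and 0 of the 48. In the authors' deposited table, 0 of the 48 passed an adjusted p of 0.05, where 48 of its 22676 genes did (0.212%). By that table's fold changes, with their sign turned to athb1-1 over wild-type, 14 of the 48 were higher and 34 lower in athb1-1. The smallest adjusted p among the 48 in edgeR's fit was 0.947.

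The fitted differences were small and the intervals were narrow. Log2 fold changes of athb1-1 over wild-type ran from -0.23 for PSBY to 0.13 for PSAK. Standard errors (SE) ran from 0.08 to 0.18, with a median of 0.10. For 47 of the 48 genes the whole 95% interval lay between -0.5 and 0.5 on the log2 scale, which is a ratio of 0.707 to 1.41, and for all 48 it lay between -1 and 1. LHCB4.3 was the 1 exception at 0.5, with an interval of -0.52 to 0.27. Over the 48 genes the interval ends corresponded to ratios of 0.699 to 1.26, and no interval reached beyond them. The sign of the fold change was positive for 16 genes and negative for 32, with a median of -0.05. Over all genes tested, 51.7% were positive and 48.3% negative, with a median of 0.01. With a trend on transcript length removed the signs were 11 positive and 37 negative, and without athb1-1 replicate 1 they were 25 positive and 23 negative, with a median of 0.01.

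**Figure D1:**
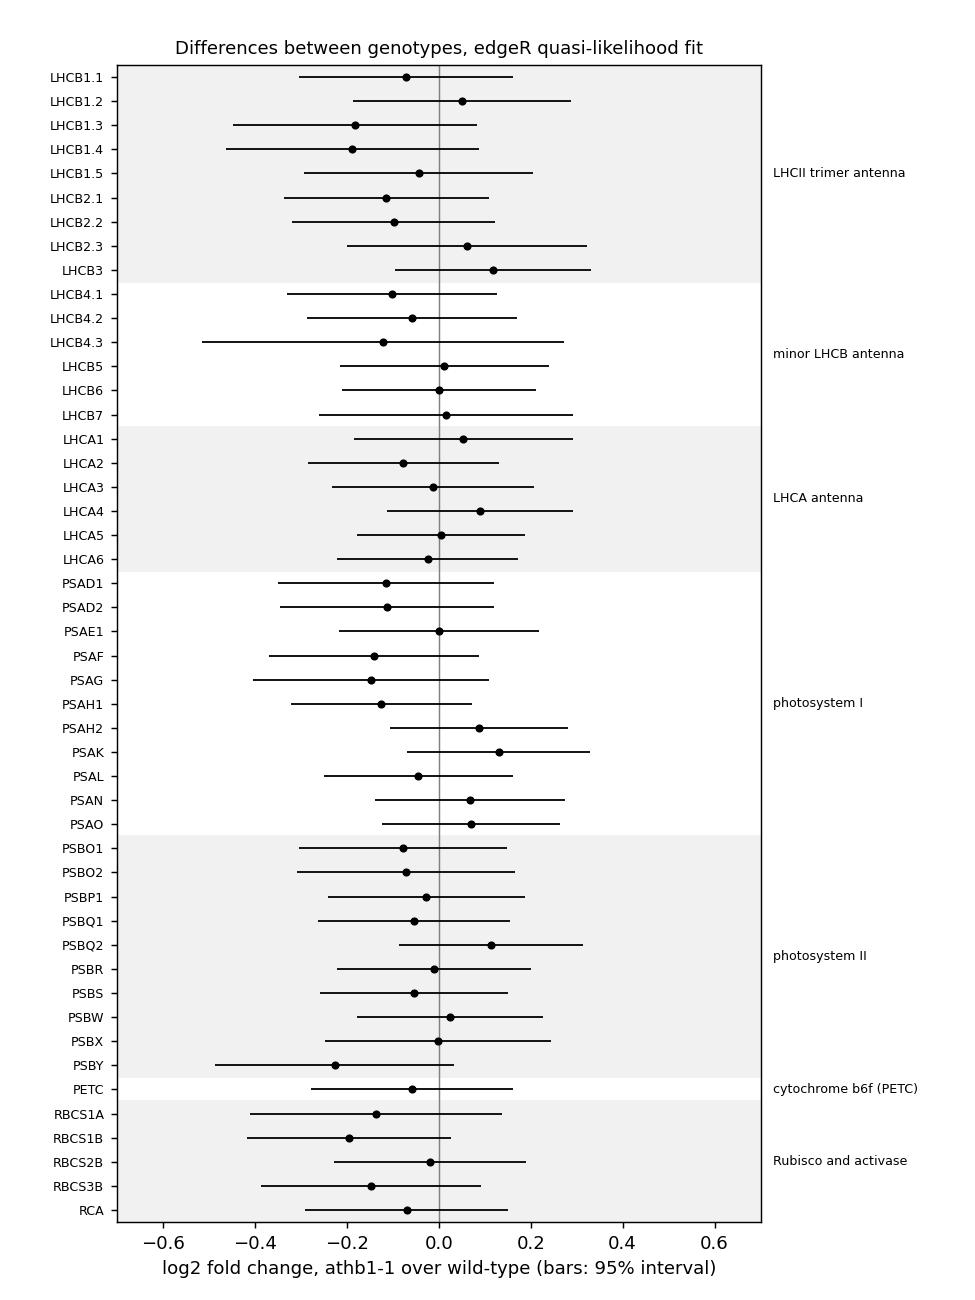
Log2 fold change of athb1-1 over wild-type (x axis, log2 units) for each of the 48 genes (rows, grouped by protein complex), as points with 95% intervals from edgeR's quasi-likelihood fit on 3 libraries per genotype. Every interval crosses 0, and the points lie between -0.23 and 0.13.

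These transcripts made up a large part of each library. Their counts summed to 16.1, 17.9 and 17.4% of all gene counts in athb1-1 replicates 1 to 3, against 17.5, 18.0 and 16.7% in wild-type replicates 1 to 3. The ranges of the genotypes overlapped, with means of 17.1 ± 0.947% in athb1-1 and 17.4 ± 0.664% in wild-type (SD, n = 3 each). The 9 genes with the most counts were all among the 48, as were 16 of the first 20, 27 of the first 50 and 39 of the first 100, a ranking that is not scaled for transcript length. The first 300 held 44 of them, and those outside were LHCB4.3, LHCB7, LHCA5 and LHCA6.

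**Figure D2:**
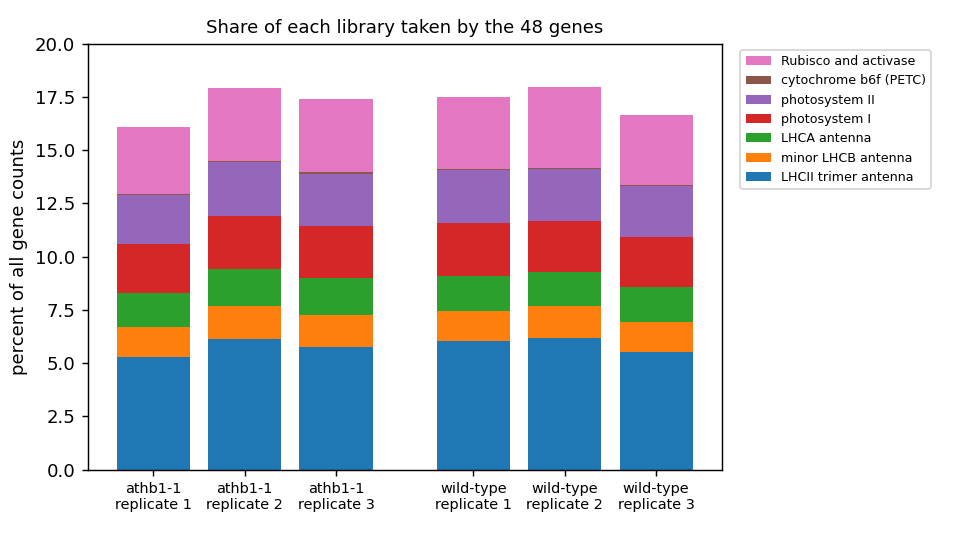
Percent of all gene counts (y axis) taken by the 48 genes in each library (x axis, athb1-1 replicates on the left, wild-type replicates on the right), stacked by protein complex. Totals run from 16.1 to 17.9% in athb1-1 and from 16.7 to 18.0% in wild-type.

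Libraries deviated for many of the 48 genes at once. Athb1-1 replicate 1 was the lowest of the 6 libraries for 35 of the 48 genes, with a median log2 deviation of -0.15 from the mean of the libraries. Wild-type replicate 2 was the highest library for 22 genes, with a median deviation of 0.09. The medians of the other libraries were 0.05 and 0.03 in athb1-1 replicates 2 and 3, and 0.03 and -0.05 in wild-type replicates 1 and 3. Over all genes tested, the median deviation lay between -0.00 and 0.01 in every library. Within a genotype, the coefficient of variation had a median over the 48 genes of 8.00% in athb1-1 and 7.71% in wild-type. It ran from 1.37% (LHCA5) to 17.03% (LHCB1.4) in athb1-1 and from 1.04% (LHCA4) to 16.3% (RBCS1A) in wild-type.

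**Figure D3:**
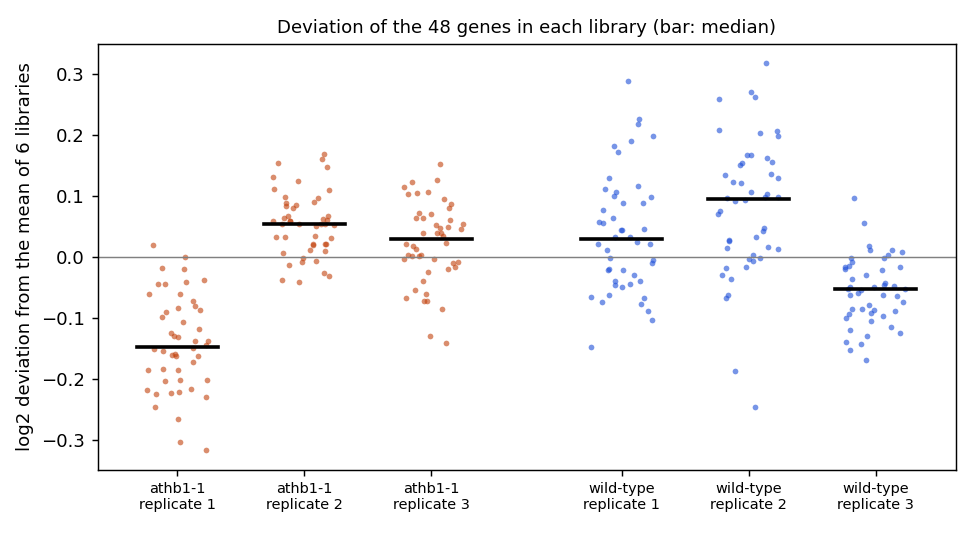
Log2 deviation of each of the 48 genes from its mean over the 6 libraries (y axis), by library (x axis, athb1-1 left, wild-type right), with a bar at the median. Athb1-1 replicate 1 has a median of -0.15, and the other medians lie between -0.05 and 0.09.

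The 9 genes of the LHCII trimers took 5.73 ± 0.431% of gene counts in athb1-1 and 5.90 ± 0.352% in wild-type (SD, n = 3 each). By fitted fold change 3 were positive and 6 negative, with a median of -0.07, and 0 of 9 were called. LHCB1.3 (AT1G29930, CAB1 in the RefSeq annotation) had the highest level per kilobase of transcript among the 48, with 15503 ± 1587 CPM per kb in athb1-1 and 17594 ± 2295 CPM per kb in wild-type. Its levels were 17044, 20939 and 19224 CPM in athb1-1, against 22104, 24203 and 18615 CPM in wild-type. The groups overlapped, since wild-type replicate 3 lay below athb1-1 replicates 2 and 3. The log2 fold change was -0.18 with an SE of 0.12 and an edgeR p of 0.161. LHCB1.4 (AT2G34430) had 3512, 4890 and 3966 CPM in athb1-1, against 5119, 4666 and 4309 CPM in wild-type. Athb1-1 replicate 2 lay inside the wild-type range, and the log2 fold change was -0.19 with an SE of 0.13. Without athb1-1 replicate 2 it was -0.33, with an unadjusted edgeR p of 0.0231. LHCB3 (AT5G54270), the third protein of the trimers, lay on the other side of 0. Its levels were 5156, 5959 and 5716 CPM in athb1-1, against 5154, 5390 and 4970 CPM in wild-type, with a log2 fold change of 0.12 and an SE of 0.10. Among the others, LHCB2.3 had the fewest and LHCB1.5 the most counts. LHCB2.3 averaged 1855 ± 267 CPM in athb1-1 and 1777 ± 160 CPM in wild-type, and LHCB1.5 averaged 9149 ± 982 CPM in athb1-1 and 9429 ± 915 CPM in wild-type.

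**Figure D4:**
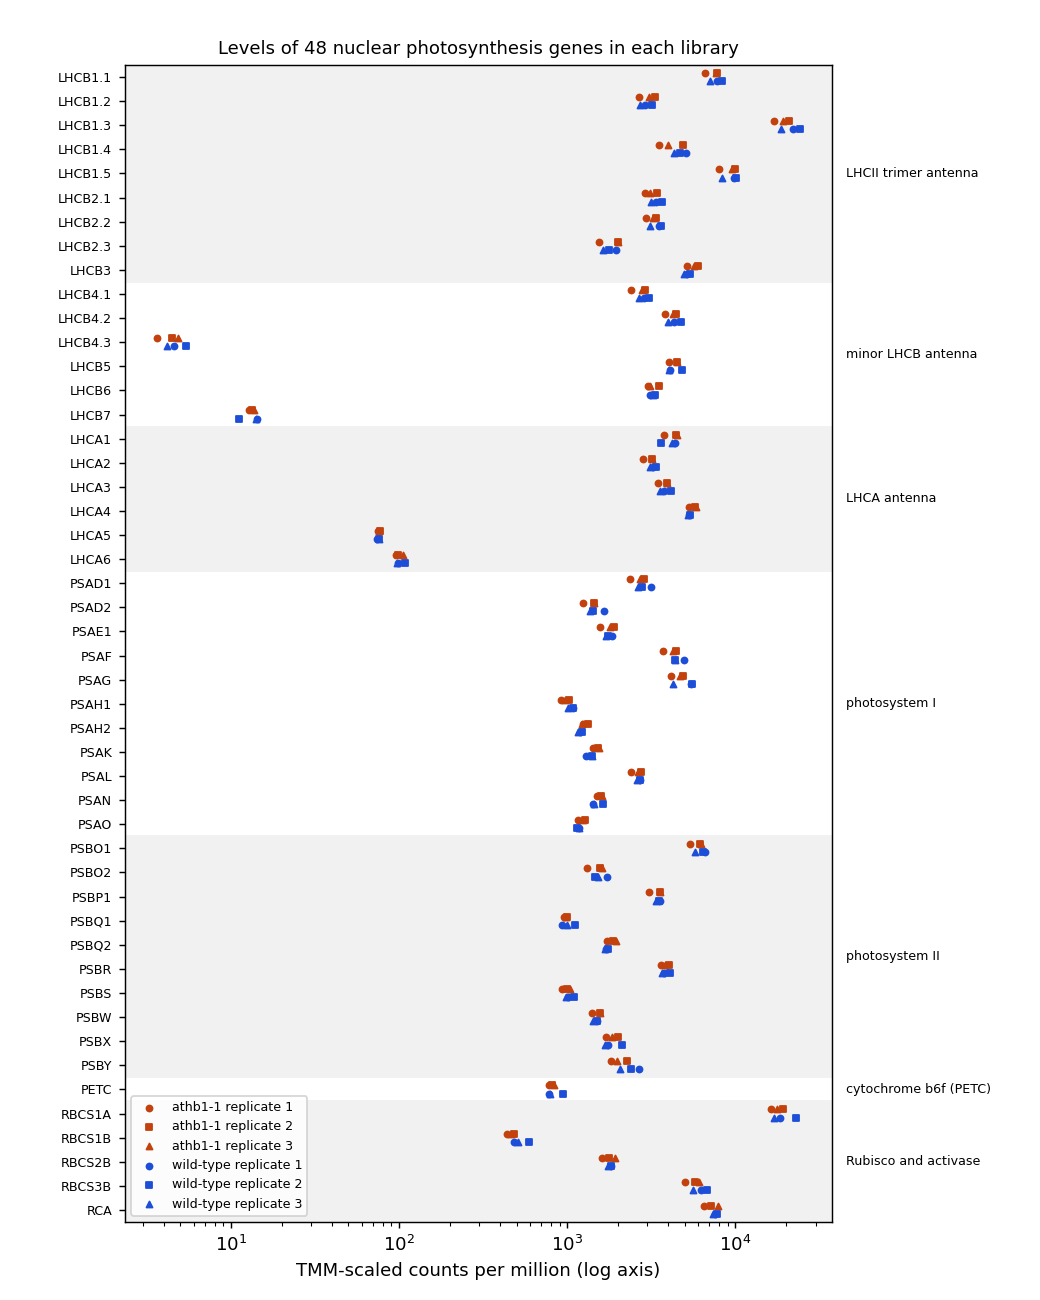
Level of each of the 48 genes (rows) in CPM scaled with TMM factors (x axis, log scale) in every library, athb1-1 above wild-type within each row. Levels run from 3.63 CPM for LHCB4.3 to 24203 CPM for LHCB1.3, and only PSAH2 and PSAK have groups that do not overlap.

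LHCB1.1, LHCB1.2 and LHCB1.3 lie beside each other on chromosome 1 and are single-exon genes. Their coding sequences are 95.7% (LHCB1.1 and LHCB1.2), 96.1% (LHCB1.1 and LHCB1.3) and 96.4% (LHCB1.2 and LHCB1.3) identical, so the counts of 1 copy depend on how reads shared by copies were assigned. A stretch of 60 bases in which they can be told apart is shown. It lies in the coding part of exon 1 at chr1:10475809-10475868 (minus strand), chr1:10473163-10473222 (minus strand) and chr1:10478095-10478154 (plus strand) of TAIR10.1 (RefSeq), with capitals at the 8 positions that are not the same in all copies shown, and 47 such positions occur over the 804 coding bases.
LHCB1.1: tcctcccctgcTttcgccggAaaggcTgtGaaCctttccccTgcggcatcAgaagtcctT
LHCB1.2: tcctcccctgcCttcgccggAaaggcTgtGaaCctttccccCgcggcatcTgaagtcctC
LHCB1.3: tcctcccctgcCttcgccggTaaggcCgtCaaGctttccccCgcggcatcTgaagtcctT
Of all 50-base stretches of the transcripts, 79.5% of those of LHCB1.1, 89.3% of those of LHCB1.2 and 83.0% of those of LHCB1.3 occur nowhere else in the genome. Among the 48 genes, 36 have only such unique stretches. The other 12 are the 5 LHCB1 copies, LHCB2.1, LHCB2.2, LHCA2 and the 4 RBCS genes, and their counts are uncertain to that extent.

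The balance among copies was compared as a share of the family's counts, which removes what a library adds to all copies alike. LHCB1.1 to LHCB1.3 together took 69.0 ± 0.539% of LHCB1 counts in athb1-1 and 69.5 ± 1.13% in wild-type (exact permutation test, two-sided, p = 0.6). The single copies are given as a description without a test. LHCB1.2 took 7.08, 7.11 and 7.07% of LHCB1 counts in athb1-1, against 6.05, 6.29 and 6.59% in wild-type. LHCB1.3 took 45.0, 44.7 and 44.3% in athb1-1, against 46.34, 47.96 and 45.29% in wild-type. LHCB1.5 took 21.2, 21.1 and 21.9% in athb1-1, against 20.62, 19.95 and 20.39% in wild-type. For these copies the groups did not overlap, with LHCB1.2 and LHCB1.5 higher and LHCB1.3 lower in athb1-1, while LHCB1.1 and LHCB1.4 overlapped. Over all 23 single-copy shares of the 8 families, 5 had groups that did not overlap, these 3 and the PSAH pair. For any 1 share, full separation is a fraction of 0.1 of all splits into 3 against 3 libraries. Shares in other gene families were not computed, so this count has no background beside it and is given as a description only. Shares of a family sum to its whole, so they are not independent. When each library was left out in turn, the difference in percentage points lay between 0.643 and 0.915 for LHCB1.2, between -2.50 and -1.17 for LHCB1.3 and between 0.849 and 1.24 for LHCB1.5, an alternative chosen after seeing the data. Where groups do not overlap, leaving out 1 library cannot change the sign, so these ranges show only how far the size moved. In the LHCB2 family, LHCB2.3 took 22.6 ± 1.58% in athb1-1 and 20.7 ± 1.22% in wild-type, and the groups overlapped (exact permutation test, p = 0.2).

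None of the 6 minor antenna genes was called, and none had an unadjusted p under 0.05. They took 1.47 ± 0.0691% of gene counts in athb1-1 and 1.45 ± 0.0636% in wild-type, with 3 positive and 3 negative fold changes and a median of -0.03. LHCB4.2 (AT3G08940) had the highest level per kilobase of the minor group, with 3261 ± 247 CPM per kb in athb1-1 and 3397 ± 305 CPM per kb in wild-type. LHCB4.1 (AT5G01530) took 39.0 ± 0.659% of LHCB4 counts in athb1-1 and 39.8 ± 0.513% in wild-type (exact permutation test, p = 0.3). The third LHCB4 gene, LHCB4.3 (AT2G40100), was barely expressed, with 50, 57 and 63 reads in athb1-1, against 49, 59 and 51 reads in wild-type. Scaled for depth these were 3.63, 4.45 and 4.87 CPM in athb1-1 and 4.55, 5.37 and 4.18 CPM in wild-type, which overlap. LHCB7 (AT1G76570), a rarely studied relative of the antenna genes, was also low, with 13.3 ± 0.501 CPM in athb1-1 and 13.1 ± 1.76 CPM in wild-type. LHCB5 averaged 4348 ± 251 CPM in athb1-1 and 4311 ± 437 CPM in wild-type, and LHCB6 averaged 3221 ± 263 CPM in athb1-1 and 3220 ± 106 CPM in wild-type.

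Among the photosystem I antenna genes, 3 fold changes were positive and 3 negative, with a median of -0.00. LHCA4 (AT3G47470) had the highest level per kilobase of the group and the smallest p. Its levels were 5287, 5777 and 5822 CPM in athb1-1, against 5291, 5345 and 5234 CPM in wild-type. Athb1-1 replicates 2 and 3 lay above all wild-type libraries and replicate 1 lay among them, and the log2 fold change was 0.09 with an SE of 0.09. LHCA5 (AT1G45474) and LHCA6 (AT1G19150), which in Arabidopsis join photosystem I to the NDH complex of cyclic electron flow, were expressed far below LHCA1 to LHCA4. LHCA5 had 74.7, 76.8 and 75.8 CPM in athb1-1, against 74.2, 76.3 and 76.2 CPM in wild-type. These values nearly coincide, and its log2 fold change of 0.00 turned negative under other scalings. LHCA6 averaged 99.8 ± 4.82 CPM in athb1-1 and 101 ± 5.87 CPM in wild-type. Summed over the LHCA genes, the share of gene counts was 1.71 ± 0.0737% in athb1-1 and 1.63 ± 0.0380% in wild-type.

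The 11 photosystem I subunit genes included both genes whose groups did not overlap. Such separation was found for 2 of the 48 genes, both higher in athb1-1, where the genotypes were fully separated for 11.3% of all genes tested, 5.86% as higher and 5.49% as lower in athb1-1. PSAK (AT1G30380), a subunit at the antenna side of the complex, had 1429, 1522 and 1537 CPM in athb1-1, against 1290, 1411 and 1399 CPM in wild-type. Every athb1-1 library lay above every wild-type library, with a log2 fold change of 0.13, an SE of 0.09 and an edgeR adjusted p of 0.951. PSAH2 (AT1G52230) encodes subunit H, which forms part of the docking site of LHCII during state transitions. It had 1243, 1323 and 1227 CPM in athb1-1, against 1185, 1224 and 1161 CPM in wild-type, with a log2 fold change of 0.09 and an SE of 0.09. Its close relative PSAH1 (AT3G16140) had 925, 1019 and 967 CPM in athb1-1, against 1084, 1082 and 1007 CPM in wild-type. PSAH1 was thus on the other side of 0, at -0.12 with an SE of 0.09, and its groups overlapped through athb1-1 replicate 2.

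Of the 8 family shares tested, that of PSAH1 was the 1 whose groups did not overlap. PSAH1 took 42.7, 43.5 and 44.1% of PSAH counts in athb1-1, against 47.8, 46.9 and 46.4% in wild-type. All athb1-1 libraries lay below all wild-type libraries, and the difference of means was -3.64 percentage points. The exact permutation test gave p = 0.1, which is the smallest that 3 against 3 libraries allow, and 0.533 after Benjamini-Hochberg adjustment over the 8 shares tested. The difference lay between -3.97 and -3.27 points when each library was left out in turn, where the sign could not change because the groups do not overlap. PSAH1 overlaps AT3G16130 on the opposite strand over 788 bases and PSAH2 overlaps AT1G52240 over 174 bases. Whether reads were counted by strand is not stated in these sources, so reads of overlapping partners cannot be told apart; the partners had a mean of 2.76 CPM (AT3G16130) and 5.47 CPM (AT1G52240). The coding sequences of the copies have 438 bases each and are 87.0% identical, and all their 50-base stretches are unique in the genome. A stretch of 60 coding bases from exon 1 is given for chr3:5469347-5469406 (minus strand) and chr1:19454911-19454970 (plus strand) of TAIR10.1, with capitals at the 13 positions where the copies differ.
PSAH1: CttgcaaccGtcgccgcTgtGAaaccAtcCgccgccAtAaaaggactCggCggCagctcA
PSAH2: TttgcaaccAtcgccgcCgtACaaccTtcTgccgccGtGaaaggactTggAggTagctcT

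**Figure D5:**
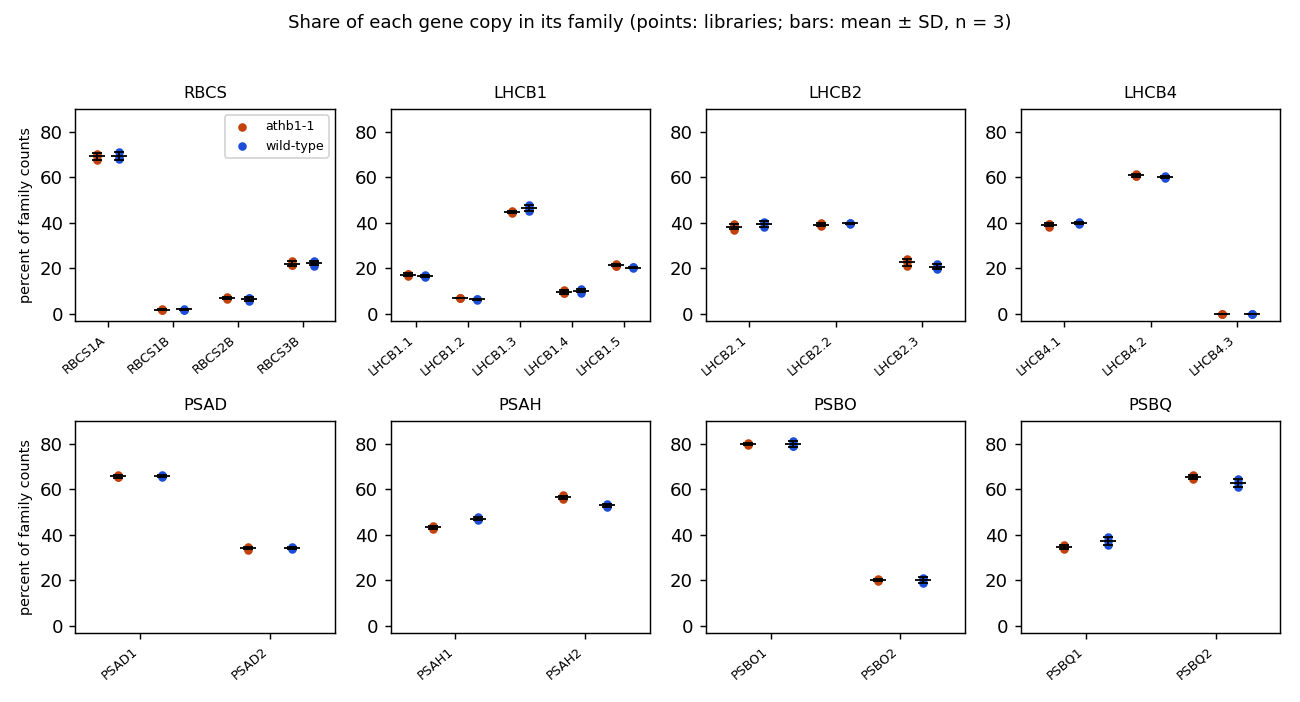
Share of each gene copy in the counts of its family (y axis, percent) for 8 families, with athb1-1 libraries to the left of wild-type libraries at each copy; points are libraries and bars are mean ± SD (n = 3). PSAH1 lies at 42.7 to 44.1% in athb1-1 and at 46.4 to 47.8% in wild-type, and the PSAD and PSBO shares nearly coincide.

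The remaining photosystem I genes showed no separation. PSAG (AT1G55670), a subunit that helps bind the antenna, had the highest level per kilobase of the complex, with 5859 ± 478 CPM per kb in athb1-1 and 6490 ± 891 CPM per kb in wild-type. PSAD1 and PSAD2 encode the stromal subunit that docks ferredoxin, and PSAD1 took 65.8 ± 0.615% of PSAD counts in athb1-1 and 65.9 ± 0.380% in wild-type (exact permutation test, p = 1). Their log2 fold changes were both -0.11. The other log2 fold changes of the complex lay between -0.15 for PSAG and 0.07 for PSAO, and the 11 genes together took 2.40 ± 0.112% of gene counts in athb1-1 and 2.42 ± 0.0901% in wild-type.

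Of the 10 photosystem II genes, 2 had positive and 8 negative fold changes, with a median of -0.04. PSBY (AT1G67740), which encodes small membrane peptides of photosystem II, had the most negative fold change of the 48. Its levels were 1814, 2270 and 1991 CPM in athb1-1, against 2662, 2396 and 2051 CPM in wild-type. Athb1-1 replicate 2 lay above wild-type replicate 3, so the groups overlapped, and the log2 fold change was -0.23 with an SE of 0.12 and an edgeR p of 0.0828. The oxygen-evolving proteins are PSBO, PSBP and PSBQ. PSBO1 (AT5G66570), the main form of the manganese-stabilising protein, took 79.8 ± 0.399% of PSBO counts in athb1-1 and 79.9 ± 1.28% in wild-type (exact permutation test, p = 1). PSBQ2 (AT4G05180) had 1726, 1884 and 1939 CPM in athb1-1, against 1698, 1756 and 1674 CPM in wild-type, and PSBQ1 (AT4G21280) had 955, 999 and 982 CPM in athb1-1, against 936, 1117 and 994 CPM in wild-type. Athb1-1 replicate 1 lay inside the wild-type range for PSBQ2, and PSBQ1 of all PSBQ counts averaged 34.6 ± 1.00% in athb1-1 and 37.2 ± 1.68% in wild-type (exact permutation test, p = 0.2). PSBR had the highest level per kilobase of the photosystem II genes, at 4861 ± 283 CPM per kb in athb1-1 and 4896 ± 284 CPM per kb in wild-type. PSBS, the protein that triggers heat dissipation of excess light, had the lowest, at 769 ± 38.1 CPM per kb in athb1-1 and 798 ± 51.3 CPM per kb in wild-type. PETC (AT4G03280) averaged 807 ± 29.2 CPM in athb1-1 and 840 ± 93.3 CPM in wild-type, where replicate 2 held 948 CPM.

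The 4 RBCS genes and RCA all had negative fold changes, with a median of -0.14, and 0 of the 5 were called. Athb1-1 replicate 1 was the lowest library for all 5. Without it, RBCS2B had a log2 fold change of 0.04 in place of -0.02. RBCS1A (AT1G67090) had 16211, 19102 and 17662 CPM in athb1-1, against 18396, 22951 and 16886 CPM in wild-type. Wild-type replicate 3 lay below athb1-1 replicates 2 and 3, and the log2 fold change was -0.14 with an SE of 0.13. Without wild-type replicate 2 it was -0.01. RBCS1B (AT5G38430), the lowest RBCS gene, had the smallest p of the 48. Its levels were 441, 481 and 465 CPM in athb1-1, against 480, 596 and 513 CPM in wild-type, and the groups overlapped by athb1-1 replicate 2. The log2 fold change was -0.20 with an SE of 0.10 and an edgeR p of 0.0783. RBCS2B averaged 1775 ± 150 CPM in athb1-1 and 1798 ± 34.2 CPM in wild-type, and RBCS3B averaged 5617 ± 531 CPM in athb1-1 and 6222 ± 586 CPM in wild-type. RCA, the chaperone that removes inhibitory sugar phosphates from Rubisco, averaged 7208 ± 690 CPM in athb1-1 and 7566 ± 168 CPM in wild-type. RBCS1A made 69.21 ± 1.404% of RBCS counts in athb1-1 and 69.3 ± 1.78% in wild-type (exact permutation test, p = 1). Between RBCS1A and LHCB1.3 the order depended on the length used, since RBCS1A was second per kilobase of transcript and first per kilobase of coding sequence.

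RBCS1B, RBCS2B and RBCS3B form a cluster on chromosome 5, and RBCS1B and RBCS2B are 97.2% identical over 546 coding bases. How reads shared by these copies were assigned is not stated in these sources. A stretch of 60 coding bases of exon 1 in which the copies can be told apart is shown. It lies at chr5:15385006-15385065, chr5:15381829-15381888 and chr5:15378157-15378216 (all minus strand, TAIR10.1), with capitals at the 8 positions not shared by all copies.
RBCS1B: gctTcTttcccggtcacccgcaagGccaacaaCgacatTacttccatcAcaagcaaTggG
RBCS2B: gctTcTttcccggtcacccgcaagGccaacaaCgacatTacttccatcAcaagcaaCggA
RBCS3B: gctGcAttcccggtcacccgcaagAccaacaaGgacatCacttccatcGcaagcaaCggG
RBCS1B differs from RBCS2B at 15 bases over the coding sequence, and 86.1% of the 50-base stretches of RBCS1B and 78.6% of those of RBCS2B are unique in the genome.

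Exon usage was compared as the fraction of a gene's reads that falls on each exon bin. Of the 48 genes, 38 had more than 1 bin with enough reads, and 0 of these were called by edgeR's diffSpliceDGE, with 0 under an unadjusted gene p of 0.05. In all, 1 of 12808 genes was called (0.00781%), and 0.617% had an unadjusted gene p under 0.05, so a count of 0 among 38 genes is near the background. Among 143 bins of the 38 genes, 1 had an unadjusted p under 0.05 (0.699%), against 1.32% of all 78017 bins tested. That bin, number 5 of PSAN (AT5G64040), held 0.328, 0.324 and 0.235% of the gene's bin counts in athb1-1, against 0.413, 0.304 and 0.490% in wild-type. It rests on 60 to 84 reads per athb1-1 library and 67 to 106 per wild-type library, and the groups overlapped. RCA is known for alternative splicing that makes a long and a short form, and its 9 bins had unadjusted p of 0.11 or more.

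Some properties that the choice of the genes did not use were set beside those of all genes. Their transcripts have a median length of 1203.5 bases, against 1713 bases for all tested genes with an annotated length, and a median GC content of 44.1%, against 41.5%. Single-exon genes number 10 of the 48 (20.8%), against 15.6% of all tested genes with an annotated length. A search of the 250 bases upstream of each annotated start counted the share of genes with at least 1 match, beside the share of all 27438 promoters of the same length. The G-box CACGTG was found for 9 of the 48 (18.8%, against 6.49% of all promoters), and the I-box GATAAG for 12 (25%, against 12.3%), both strands searched. The letters CCAATC were found for 13 (27.1%, against 10.2%) and the CCA1-binding site AAAAATCT for 5 (10.4%, against 6.69%). The evening element AAAATATCT was found for 1, LHCA5 (2.08%, against 2.36%), and TATAAA on the gene's own strand for 12 (25%, against 32.9%). The site CAATNATTG, known to be bound by HD-Zip I proteins, was found for 0 of the 48, against 0.918% of all promoters. Each motif was missing from most of the 48 windows. These matches describe letters in a window and not bound sites, and for 18 of the 48 windows another annotated gene reaches into the window. The windows also lie at unlike distances from the coding sequence. From annotated start to first coding base, introns included, the median was 189.5 bases, from 0 in LHCB2.3 to 1547 in PSBS.

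The windows of 5 genes described above are shown, with matches in capitals. They are PSBY and PSAK, with the most negative and the most positive fold change of the 48, RBCS1B, with the smallest p, PSAH1, and LHCB1.3, with the highest level per kilobase of transcript. RBCS2B and PSBQ2 are shown for their motif matches and not for a difference between the genotypes. The windows cover chr1:25395250-25395499 (minus strand) for PSBY, chr1:10721933-10722182 (plus strand) for PSAK, chr5:15385321-15385570 (minus strand) for RBCS1B, chr3:5469595-5469844 (minus strand) for PSAH1 and chr1:10477635-10477884 (plus strand) for LHCB1.3. Those of RBCS2B and PSBQ2 are chr5:15382072-15382321 and chr4:2673244-2673493 (both minus strand), and all are in TAIR10.1.
PSBY: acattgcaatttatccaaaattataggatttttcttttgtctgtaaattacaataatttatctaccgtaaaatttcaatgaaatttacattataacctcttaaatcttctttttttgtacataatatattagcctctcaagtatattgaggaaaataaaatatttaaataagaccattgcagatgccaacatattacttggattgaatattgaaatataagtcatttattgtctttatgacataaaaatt
PSAK: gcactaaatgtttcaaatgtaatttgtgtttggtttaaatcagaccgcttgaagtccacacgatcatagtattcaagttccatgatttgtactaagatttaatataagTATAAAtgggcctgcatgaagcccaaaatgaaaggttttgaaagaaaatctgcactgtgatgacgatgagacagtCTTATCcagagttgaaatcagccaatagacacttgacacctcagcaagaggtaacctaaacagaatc
RBCS1B: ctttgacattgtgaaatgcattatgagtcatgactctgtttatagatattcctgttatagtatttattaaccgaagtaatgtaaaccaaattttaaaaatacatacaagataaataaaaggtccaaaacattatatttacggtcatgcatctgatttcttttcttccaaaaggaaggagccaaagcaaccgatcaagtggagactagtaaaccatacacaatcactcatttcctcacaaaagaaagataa
PSAH1: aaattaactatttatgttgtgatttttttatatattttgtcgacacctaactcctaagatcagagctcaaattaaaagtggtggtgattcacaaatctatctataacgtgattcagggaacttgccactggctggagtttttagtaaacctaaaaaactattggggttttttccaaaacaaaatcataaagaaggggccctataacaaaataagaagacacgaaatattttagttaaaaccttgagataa
LHCB1.3: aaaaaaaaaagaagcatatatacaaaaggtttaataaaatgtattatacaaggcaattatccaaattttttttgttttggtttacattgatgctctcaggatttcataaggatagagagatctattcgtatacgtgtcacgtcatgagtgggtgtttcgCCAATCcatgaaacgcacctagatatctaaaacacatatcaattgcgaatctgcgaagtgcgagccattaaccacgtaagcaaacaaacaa
RBCS2B: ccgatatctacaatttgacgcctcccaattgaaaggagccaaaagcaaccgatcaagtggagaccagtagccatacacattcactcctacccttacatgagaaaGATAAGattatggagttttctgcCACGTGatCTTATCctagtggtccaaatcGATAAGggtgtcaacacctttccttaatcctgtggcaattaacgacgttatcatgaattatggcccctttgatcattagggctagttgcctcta
PSBQ2: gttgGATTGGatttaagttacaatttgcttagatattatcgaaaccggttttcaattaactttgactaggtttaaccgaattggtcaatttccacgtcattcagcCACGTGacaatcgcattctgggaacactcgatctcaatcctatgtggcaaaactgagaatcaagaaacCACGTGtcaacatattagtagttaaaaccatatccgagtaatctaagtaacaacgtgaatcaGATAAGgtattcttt
RBCS2B holds a G-box among 3 I-box matches, 2 of them as GATAAG and 1 as CTTATC on the other strand, the G-box starting 123 bases before the annotated start. PSBQ2 holds 2 G-boxes, which begin 145 and 77 bases before the start, an I-box 15 bases before it and 1 CCAATC match read as GATTGG on the other strand. PSAK holds an I-box read as CTTATC at 67 bases and TATAAA at 142 bases before the start. LHCB1.3 holds CCAATC at 91 bases before the start. None of the listed motifs was found in the windows of PSBY, RBCS1B and PSAH1. Bases after an annotated start were not searched. From annotated start to first coding base there are 165 bases in RBCS1B and 93 bases in RBCS2B. The RBCS1B window ends in letters like those that lead into the first I-box of RBCS2B. The windows of these copies thus cover unlike stretches, and the absence in RBCS1B holds for its window only.

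Genes that work with these proteins were counted in the same fit. Of 18 genes for electron transport and the ATP synthase, 0 were called, 4 fold changes were positive and 14 negative, with a median of -0.05. FD2 (AT1G60950), the main leaf ferredoxin, had the smallest p of them, with 2381, 2667 and 2550 CPM in athb1-1, against 2913, 3398 and 2480 CPM in wild-type, and the groups overlapped. Of 15 Calvin cycle genes, 0 were called, 1 was positive and 14 negative, with a median of -0.08. Without wild-type replicate 2, 5 were positive and 10 negative, with a median of -0.04. PDTPI (AT2G21170), the plastid triose phosphate isomerase, averaged 534 ± 27.0 CPM in athb1-1 and 593 ± 50.2 CPM in wild-type. Of 10 assembly and import genes, 0 were called, 1 had an unadjusted p under 0.05, 1 was positive and 9 negative, with a median of -0.07. CPSRP43 (AT2G47450), the signal recognition particle protein that carries LHC proteins through the stroma, averaged 456 ± 56.7 CPM in athb1-1 and 545 ± 37.0 CPM in wild-type. Its libraries held 406, 518 and 445 CPM in athb1-1, against 544, 583 and 509 CPM in wild-type, so the groups overlapped by athb1-1 replicate 2.

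Of 11 LHC-like and state transition genes, 0 were called, 1 had an unadjusted p under 0.05, 3 were positive and 8 negative. STN8 (AT5G01920), a kinase that phosphorylates photosystem II core proteins, had 120, 135 and 133 CPM in athb1-1, against 164, 153 and 144 CPM in wild-type. Its groups did not overlap, with a log2 fold change of -0.25, an SE of 0.09 and an edgeR adjusted p of 0.939. The groups of TAP38, the phosphatase that acts on LHCII in state transitions, did not overlap either, with 84.0, 82.8 and 85.2 CPM in athb1-1, against 98.6, 86.2 and 95.8 CPM in wild-type. Of 17 regulators that passed the filter, from 18 listed, 0 were called, 1 had an unadjusted p under 0.05, 6 were positive and 11 negative. The signs were 1 positive and 16 negative without wild-type replicate 2, and 9 positive and 8 negative without wild-type replicate 3. HYH (AT3G17609), a bZIP factor related to HY5 that acts in light responses, had 36.6, 32.9 and 32.9 CPM in athb1-1, against 41.1, 36.9 and 42.4 CPM in wild-type. Its groups were also separated, at a log2 fold change of -0.24, an SE of 0.10 and an edgeR adjusted p of 0.939. Groups that did not overlap were found for 2 of the 11 LHC-like and state transition genes and 1 of the 17 regulators. They were found for 0 of the 18 electron transport, 0 of the 15 Calvin cycle and 0 of the 10 assembly and import genes. Of all genes tested, 11.3% had such groups. DESeq2 also called 0 genes of each of these lists.

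The plastid-encoded partners of the complexes are 18 genes, of which 0 were called, 2 had an unadjusted p under 0.05, 1 was positive and 17 negative. Their median log2 fold change was -0.39, and it depended on single libraries, at -0.12 without wild-type replicate 2, -0.53 without athb1-1 replicate 2 and -0.70 without wild-type replicate 3. Without wild-type replicate 3 all 18 were negative and 15 had an unadjusted p under 0.05, with 0 called. Their summed level was 435, 517 and 468 CPM in athb1-1, against 642, 843 and 390 CPM in wild-type. The wild-type libraries lay on both sides of the athb1-1 libraries, with replicate 2 highest and replicate 3 lowest. All plastid genes together held only 0.196 to 0.242% of gene counts in athb1-1 and 0.163 to 0.321% in wild-type. Mitochondrial genes also had their highest wild-type share in replicate 2 (0.0806%) and their lowest in replicate 3 (0.0459%). How much organelle RNA each library recovered was not tested. psaC, the iron-sulfur subunit of photosystem I, had the smallest p and averaged 1.62 ± 0.131 CPM in athb1-1 and 3.26 ± 1.97 CPM in wild-type. rbcL, the large subunit of Rubisco and partner of the RBCS genes, averaged 59.5 ± 5.02 CPM in athb1-1 and 74.7 ± 16.3 CPM in wild-type.

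Markers of cell types were counted because the samples were whole seedlings. The 6 mesophyll markers summed to 10783 to 12722 CPM in athb1-1 and to 11801 to 13486 CPM in wild-type, with 0 called and 6 of 6 fold changes negative. Without athb1-1 replicate 1, and likewise without wild-type replicate 2, 4 were negative and 2 positive. GLYK, the glycerate kinase of photorespiration, averaged 259 ± 13.3 CPM in athb1-1 and 295 ± 8.21 CPM in wild-type. GLYK was lower in every athb1-1 library than in any wild-type library, with 274, 249 and 254 CPM in athb1-1 against 302, 286 and 296 CPM in wild-type. The 10 root markers summed to 1972 to 2273 CPM in athb1-1 and to 2077 to 2392 CPM in wild-type, a sum that rests mostly on PYK10, a beta-glucosidase of roots, with 1904 ± 136 CPM in athb1-1 and 1970 ± 135 CPM in wild-type. Of the 10 fold changes 7 were positive and 3 negative, with a median of 0.18. EXPA18, a root hair expansin, averaged 5.38 ± 0.908 CPM in athb1-1 and 3.60 ± 0.990 CPM in wild-type. The 5 guard cell markers summed to 74.3 to 81.6 CPM in athb1-1 and to 60.9 to 75.4 CPM in wild-type, with 5 of 5 fold changes positive and a median of 0.13. Without wild-type replicate 2, 3 were positive and 2 negative, with a median of 0.02. Among the guard cell markers KAT1, a guard cell potassium channel, had the smallest p, with 26.5, 25.3 and 26.0 CPM in athb1-1 against 20.2, 14.6 and 21.8 CPM in wild-type and an edgeR adjusted p of 0.724, and its groups did not overlap. Of all marker genes tested, only GLYK and KAT1 had groups that did not overlap, where 11.3% of all genes tested did. The 5 vasculature markers summed to 239 to 298 CPM in athb1-1 and to 240 to 292 CPM in wild-type, with 4 of 5 fold changes positive and a median of 0.02. Without wild-type replicate 3, 1 was positive and 4 negative. SULTR2.1, a sulfate transporter of vascular tissue, was the 1 with a negative fold change over all 6 libraries and averaged 66.1 ± 9.44 CPM in athb1-1 and 77.1 ± 10.7 CPM in wild-type. Of the seed markers, OLEO2, an oleosin of oil bodies, averaged 0.647 ± 0.428 CPM in athb1-1 and 2.27 ± 1.71 CPM in wild-type. Only 2 of the 9 seed markers passed the filter of edgeR's fit. The authors' deposited table calls CRU3 (adjusted p 0.0367) and SESA3 (0.00922), seed storage protein genes outside that fit, as lower in athb1-1. CRU3 had 0.145, 0.0781 and 0 CPM in athb1-1 against 0.186, 7.19 and 0.328 CPM in wild-type, and SESA3 had 0, 0 and 0.0773 CPM in athb1-1 against 0.0929, 11.8 and 0 CPM in wild-type, so both rest on wild-type replicate 2. None of the marker genes tested was called by edgeR or DESeq2, with 2 root, 1 guard cell and 1 seed marker at an unadjusted p under 0.05 in edgeR, and the part of cell type proportions in the levels of the 48 genes was not tested.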

How the data were processed

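Gene and exon bin counts of 6 libraries, 3 of athb1-1 and 3 of wild-type, were used as deposited. Per the submitters' processing notes the software was TopHat2 2.0.8 with Bowtie2 2.1.0, on build TAIR10. Neither the counting program nor its strand setting or annotation is stated in these sources. The deposited comparison table of the authors holds log2 fold changes, log2 CPM, p-values and adjusted p-values with no named tool. Its log2 fold changes run wild-type over athb1-1, and their sign, turned round, and the adjusted p-values were used. Its 6 columns of per-library values were not used.

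Gene counts were fitted with edgeR 4.0.16 in R 4.3.3 (TMM, filterByExpr, robust quasi-likelihood test, genotype as the only term, Benjamini-Hochberg adjustment over all 18626 genes tested). DESeq2 1.42.0 was an alternative. CPM values carry TMM factors, and spreads are SD. Exon usage was tested with diffSpliceDGE. Rows of the exon files that name no bin stayed out of all sums; those for low alignment quality equalled 8.38 to 9.30% of bin reads in athb1-1 and 8.21 to 10.6% in wild-type. Positions, lengths and sequences come from TAIR10.1 (RefSeq), counted from 1. An edgeR p-value over 3 libraries each sets a difference against the spread between these samples, moderated over all genes tested. Shares of gene copies were compared with two-sided exact permutation tests.

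The 48 genes and all lists were chosen with earlier results of these data known. The rule named, per complex, the gene with the smallest p and those highest and lowest per kilobase, the 4 most positive and 4 most negative fold changes, all copies of 8 families, and per list the gene with the smallest p. Genes given outside the rule, among them PSAO, TAP38, CRU3, SESA3, PYK10 and the exon bins of PSAN and RCA, were chosen after their values were seen. Counts were also simulated for the comparison of athb1-1 with wild-type over 18626 genes. Of genes given a log2 fold of 1, 87 of 100 were recovered, and of those given 2, 95 of 100. Of 20 of the 48 genes given 0.5, 13 were recovered. Of the 18406 genes left unchanged in the simulation, 8 were called falsely. Benjamini-Hochberg adjustment is stricter where fewer genes differ, and the real fit called 10 genes. Recovery in the real data may thus be lower, and the simulation does not give its rate for the 48 genes. Alternatives covered normalization, filter, replicate block, length trend, exon bins and each library left out.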

Additional observations from a re-analysis of the deposited data

How the results depend on the processing

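None of the 48 genes was called under any of the 14 alternative settings, and their lowest adjusted p over those settings was 0.412, without wild-type replicate 2. The count over all genes, 10 in the reported fit, was 22 with DESeq2, 19 with no filter on low counts, 12 with a replicate block and 33 with a replicate block and the length trend removed, and it ran from 8 to 165 when each library was left out, with 165 without wild-type replicate 2. The cause was not tested. Whether the replicate numbers pair the samples was not settled. The correlations of same-numbered libraries were -0.05, 0.21 and 0.11, and not every library correlated best with its own number. With 3 libraries per genotype these correlations are not independent of each other, so they cannot decide it. Of 600 recomputed log2 fold changes of named genes, 582 kept their direction and side of the threshold and 18, from 10 genes, turned. LHCA5 turned to -0.0025 with DESeq2, -0.0017 with RLE factors, -0.0024 with summed exon bins, -0.031 with the length trend removed and -0.030 with the replicate block and length trend.

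With each library left out in turn, 23 of the 43 named genes kept the sign of their log2 fold change but moved by over 1.5 times, among them LHCB1.4 (-0.333 to -0.0855), LHCB1.3 (-0.280 to -0.102) and FD2 (-0.318 to -0.0979). Log2 fold changes crossed 0 for LHCA5 (-0.0121 to 0.0136), PSBR (-0.058 to 0.0299), RBCS2B (-0.0799 to 0.0424), LHCB1.5 (-0.122 to 0.0412), PSBO2 (-0.130 to 0.0157), LHCB2.3 (-0.0042 to 0.177), LHCB1.2 (-0.0284 to 0.130), LHCB4.2 (-0.120 to 0.0029), PETC (-0.112 to 0.0298) and PSBQ1 (-0.112 to 0.0127). Differences of copy shares, in percentage points, crossed 0 for RBCS1A (-0.649 to 0.970), LHCB1.1 to LHCB1.3 (-0.992 to 0.0849), PSAD1 (-0.403 to 0.185) and PSBO1 (-0.464 to 0.694). The difference in the share of all gene counts ran from -0.636 to 0.284 points, and the number of positive fold changes among the 48 from 9 to 25. Genes called for exon usage numbered 0 to 1. LHCB4.3, with 49 to 63 reads per library, is the gene of the 48 for which depth limits the interval most.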
